A study of Caenorhabditis elegans with 2 samples.

Results

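The 6 genes tasp-1, K01G5.10, cap-2, gmps-1, K12H4.5 and puf-9 of Caenorhabditis elegans lie at 4 of the strongest peaks listed for the homeobox protein CEH-82. The genes were chosen by the deposited signal value of the peak at their promoter, at or near the top of the list of reproducible peaks. They share 4 of the 537 reproducible peaks, because tasp-1 and K01G5.10 face away from each other around 1 peak and cap-2 and gmps-1 around another. In all, 507 protein-coding genes had a reproducible summit in the promoter window, taken as 1000 bp upstream to 200 bp downstream of the annotated start. Since signal values selected the genes, these values are given as a description and were not tested.

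Chromatin immunoprecipitation with sequencing (ChIP-seq) was done on whole larvae of the second stage (L2), with both sexes mixed and the age unknown. The animals were of strain OP212, genotype unc-119(ed3) III; ddEx58, which carries eGFP-tagged CEH-82. By worm nomenclature ddEx58 is an extrachromosomal array, a transgene that is passed on unevenly, so that not every cell need carry it. The promoter that drives it is not given in the sources used here. The antibody is labelled only ceh-82, and the lists hold no value that checks the tag. There was 1 group with 2 biological replicates, which share this genotype and stage, and no untagged strain or other condition was compared. The genes had been grouped as autosomal promoters. The annotation places tasp-1, K01G5.10 and K12H4.5 on III and cap-2 and gmps-1 on II, but puf-9 on X, so that name holds for 5 of the 6 genes.

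Homeobox proteins bind DNA through a homeodomain and regulate transcription, mostly from sites in promoters and enhancers. In the compact worm genome many neighbouring genes are transcribed away from each other, and the sequence between their starts then serves as promoter for both. A peak there cannot be assigned to either gene by position alone. Many worm transcripts have their first bases replaced by a spliced leader, so an annotated start can lie downstream of the place where transcription begins.

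The sequence at the 4 summits is shown because the regions differ in composition and share few short words. Each window runs 100 bp to either side of the summit and is given 5′ to 3′ on the plus strand of ce11, as read from RefSeq's WBcel235 assembly. The first window stops at the base before the annotated start of tasp-1 and is shorter for that reason. Capitals mark GAGAGA or its reverse complement TCTCTC.
tasp-1 and K01G5.10, III:10759149-10759306: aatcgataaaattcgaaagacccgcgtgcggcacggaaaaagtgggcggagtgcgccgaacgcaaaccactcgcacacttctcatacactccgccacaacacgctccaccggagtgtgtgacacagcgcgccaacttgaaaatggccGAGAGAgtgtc
cap-2 and gmps-1, II:10868873-10869073: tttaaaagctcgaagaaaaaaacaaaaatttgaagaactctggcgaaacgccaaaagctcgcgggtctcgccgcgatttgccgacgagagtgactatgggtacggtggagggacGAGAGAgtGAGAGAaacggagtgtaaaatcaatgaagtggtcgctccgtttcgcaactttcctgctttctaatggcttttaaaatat
K12H4.5, III:8043901-8044101: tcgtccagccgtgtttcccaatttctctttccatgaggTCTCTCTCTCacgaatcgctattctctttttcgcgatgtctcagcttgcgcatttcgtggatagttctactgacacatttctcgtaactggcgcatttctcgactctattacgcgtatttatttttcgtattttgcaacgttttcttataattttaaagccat
puf-9, X:5841209-5841409: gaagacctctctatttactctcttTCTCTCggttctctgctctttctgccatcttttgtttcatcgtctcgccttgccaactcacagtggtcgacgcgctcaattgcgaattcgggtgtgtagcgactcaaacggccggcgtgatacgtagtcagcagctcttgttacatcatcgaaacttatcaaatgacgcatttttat

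The strongest of all reproducible peaks lay between tasp-1 and K01G5.10. The gene tasp-1 encodes the worm homolog of taspase, a threonine aspartase that in mammals cleaves MLL histone methyltransferases and the transcription factor TFIIA, and RefSeq names the product of K01G5.10 a haloacid dehalogenase-like hydrolase domain-containing protein. In the optimal and pooled lists the peak spanned III:10759170-10759324, with the summit 79 bp from its left end (a 0-based offset) at III:10759249. Its signal value was 73.5 in replicate 1 and 135 in replicate 2, and 211 in the pooled list. It ranked 1 of 30000 in replicate 1, 2 of 30000 in replicate 2, and 1 in both the pooled list of 9070 regions and the optimal list. In replicate 2 it stood at 94.5% of that list's highest value, which belonged to the X peak at nspc-17. The signal value is the authors' own score for each region, on no stated scale. It ranks regions within a list, and the folds and ratios given with it describe that score and are not amounts of bound protein.

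The peak at cap-2 and gmps-1 ranked 16 of the 537. The product of cap-2 is the beta subunit of the F-actin-capping protein, which closes the fast-growing end of actin filaments, and gmps-1 encodes a putative GMP synthase, which makes GMP in purine synthesis. The interval was II:10868930-10869011, with the summit offset 43 bp to II:10868973. Signal values were 36.0 in replicate 1, 61.5 in replicate 2 and 98.5 in the pooled list. Ranks were 14 in replicate 1, 20 in replicate 2 and 16 in the pooled list. These values were 10.8 times the median of the replicate 1 list and 14.9 times that of the replicate 2 list.

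The peak at K12H4.5 ranked 19. RefSeq lists its product, of 97 residues, as uncharacterized. The interval was III:8043869-8044132, with the summit offset 132 bp to III:8044001. Signal values were 34.9 in replicate 1, 57.5 in replicate 2 and 93.5 in the pooled list, with ranks of 17, 24 and 19. It thus stood near the cap-2 peak in every list.

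The peak at puf-9 ranked 24 and was the lowest of the 4 in each list. PUF-9 is a Pumilio-family protein, a class that binds elements in the 3′ untranslated regions of mRNAs and mostly represses them. The interval was X:5841177-5841440, with the summit offset 132 bp to X:5841309. Signal values were 33.5 in replicate 1, 52.8 in replicate 2 and 89.6 in the pooled list, with ranks of 19, 33 and 24.

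**Figure D1:**
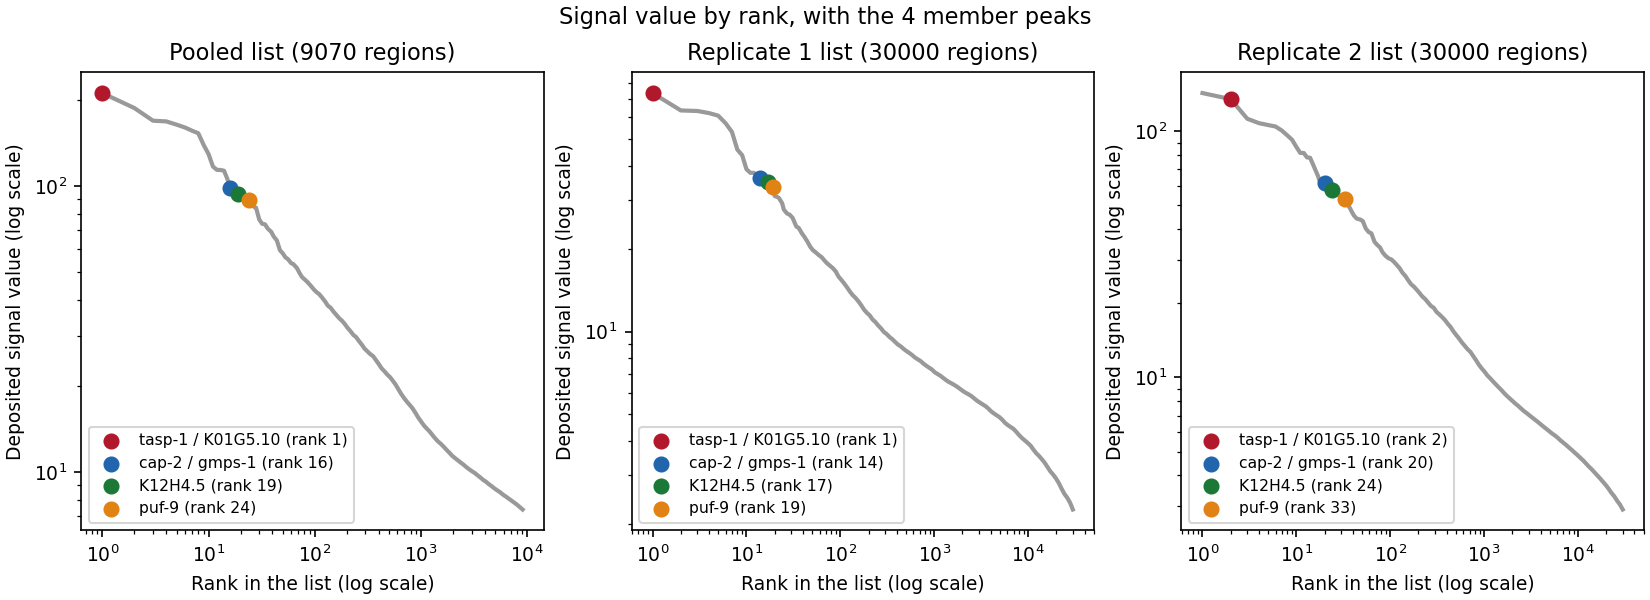
Deposited signal value against rank (both log axes) in the pooled list and the 2 replicate lists on ce11, with each list as a grey line and the 4 peaks as coloured points. The peak at tasp-1 and K01G5.10 is at rank 1 or 2 in each panel, and the other 3 peaks lie together between ranks 14 and 33.

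The replicate lists gave the same order of the 4 peaks. Over the 2 replicates, the signal value was 104 ± 43.5 (mean ± SD, n = 2) at tasp-1 and K01G5.10. It was 48.8 ± 18.0 at cap-2 and gmps-1, 46.2 ± 16.03 at K12H4.5 and 43.2 ± 13.7 at puf-9, each with n = 2. Replicate 2 had the higher value at each of the 4 peaks, and no common scale of the lists is stated, so the SD holds this offset between lists and is no measure for differences between peaks. Within each list the peak at tasp-1 and K01G5.10 lay above the other 3, which followed each other closely. All 4 peaks were among the strongest 537 of each replicate list, as were 44.7% of all reproducible peaks. Signal value had selected them, so nothing is read from that count. The same holds for the optimal list itself, which kept 5.92% of the pooled regions.

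The ratio of replicate 2 to replicate 1 varied little among the 4 peaks. It was 1.84 at tasp-1 and K01G5.10, 1.71 at cap-2 and gmps-1, 1.65 at K12H4.5 and 1.58 at puf-9. Over the 486 reproducible peaks with a summit within 100 bp in both replicate lists, the median was 2.14 with quartiles of 1.5 and 3.05. Over the strongest 24 peaks it was 1.79, with quartiles of 1.65 and 2.27. The pooled value was close to the sum of the replicate values, at 1.01 times the sum for the first 3 peaks and 1.04 times for puf-9. The median of this quotient over the 486 peaks was 1.02.

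**Figure D2:**
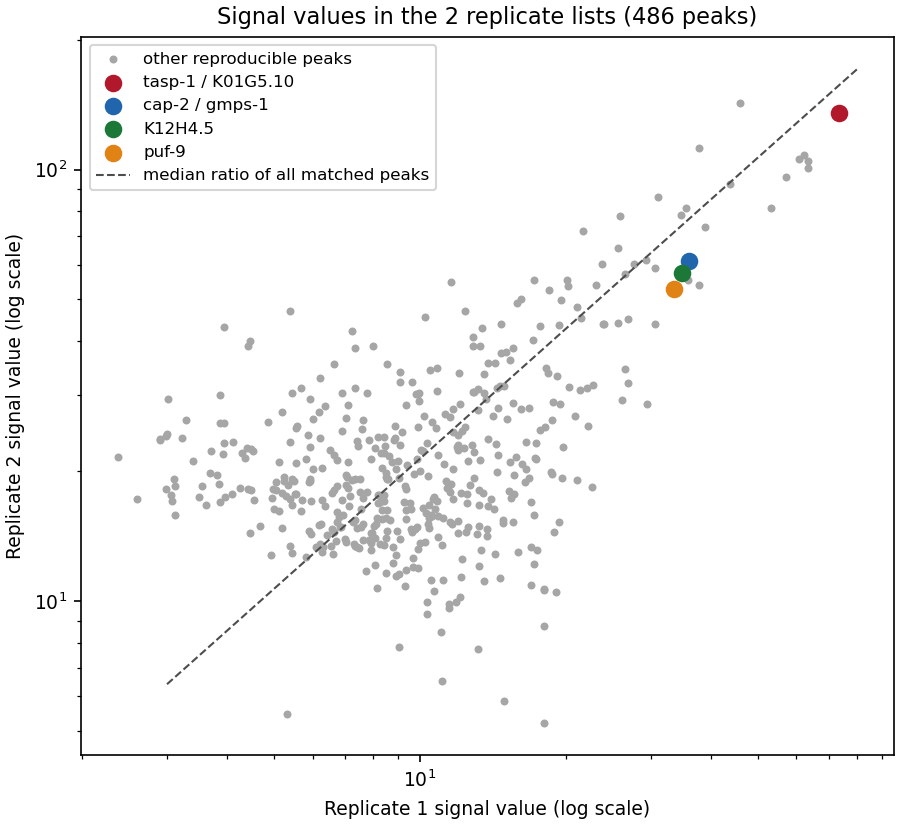
Signal value in replicate 2 (vertical) against replicate 1 (horizontal), both on log axes, for the 486 reproducible peaks matched within 100 bp in both replicate lists. The 4 coloured points lie at the upper right, below the dashed line that marks the median ratio of 2.14.

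Summit positions differed little between lists. At tasp-1 and K01G5.10 the summit of replicate 1 was at -3 bp from the optimal summit and that of replicate 2 at 0 bp. The shifts were -21 and 1 bp at cap-2 and gmps-1, -18 and 3 bp at K12H4.5, and 8 and 16 bp at puf-9. Over all matched reproducible peaks the median absolute shift was 16 bp in replicate 1 (492 peaks) and 6 bp in replicate 2 (531 peaks). Intervals narrower than the common width of 264 bp occurred at 11 of the 537 reproducible peaks, all at rank 16 or better. Those at tasp-1 and K01G5.10 (155 bp) and at cap-2 and gmps-1 (82 bp) were among them. In replicate 1 the only narrower interval of 30000 was the one at tasp-1 and K01G5.10, of 79 bp.

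The authors' significance did not separate the 4 peaks from many others. Each carried the highest value of its list, a −log10 q of 2.93 in the optimal and pooled lists (q = 0.00117), 2.97 in replicate 1 (q = 0.00107) and 3.09 in replicate 2 (q = 0.000812). In the optimal list 429 of the 537 peaks shared that value. These q-values are the peak caller's own, per region, and compare no samples.

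The 7 nearest neighbours in the ranking were on X or at ribosomal protein genes. Below the tasp-1 peak came the one at nspc-17 on X, with a signal value of 187. The cap-2 peak stood between 106 at the divergent pair rpl-20 and Y17G9B.5 and 94.8 at an X region whose nearest start was that of F55G7.5. K12H4.5 stood between 94.3 at an X region nearest to ZK899.10 and 92.8 at the divergent pair rps-12 and ska-3. The puf-9 peak stood between 91.3 and 86.9 at X regions nearest to the small RNA genes T27A8.8 and 21ur-12946.

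The set is not every strong autosomal promoter outside ribosomal genes. Of the strongest 24 peaks, 10 were autosomal and each of these had a protein-coding start in the window. A ribosomal protein gene was present at 5 of the 10. The other 5 were the 3 autosomal peaks described here, the peak at cdc-48.1 (signal value 153, rank 8) and that at eelo-2 (92.1, rank 22). Of the 14 X peaks, only those at nspc-17, ins-39 and puf-9 had a coding start in the window.

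Each summit lay upstream of the annotated start of its genes, at distances that ranged widely. The gene tasp-1 (WBGene00010480, III:10759307-10763021, plus strand) has 3 transcripts with different starts, and the summit was at -58, -136 and -420 bp from them. It was at -518 bp from the first coding base. RefSeq lists only the middle of these starts. The start of K01G5.10 (WBGene00010481, III:10757641-10758522, minus strand) was farther, with the summit at -727 bp from it, and 784 bp separate the starts of this pair. The peak is therefore much closer to tasp-1, and its right end overlaps the first annotated exon of that gene.

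The summit at cap-2 (WBGene00000293, II:10869196-10870827, plus strand) and gmps-1 (WBGene00010912, II:10863679-10868720, minus strand) lay near the middle of the gap between them. It was at -223 bp from the start of cap-2 and at -253 bp from that of gmps-1, with 475 bp between the starts. The gene gmps-1 has 5 transcripts, of which 1 starts far inside the gene, with the summit at -2239 bp from that start. With the summit of replicate 1 the distances were -244 and -232 bp, so which gene was nearer depended on the replicate.

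K12H4.5 (WBGene00019680, III:8044487-8044780, plus strand) is a gene of 1 coding exon, and the summit was at -486 bp from its start. No gene on the other strand had its start in the window. The nearest coding start there was that of the uncharacterized gene K12H4.6, with the summit at -1126 bp from it. Downstream, spcs-3, which encodes a signal peptidase subunit, follows K12H4.5 on the same strand after 236 bp.

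The puf-9 summit was at -283 bp from the start of puf-9 (WBGene00004245, X:5841592-5845987, plus strand). It lay inside 2 noncoding RNA genes that overlap each other, W06B11.7 (X:5841170-5841350, minus strand) at 41 bp from its start and W06B11.9 (X:5841185-5841361, plus strand) at 124 bp. The partner on the other strand was thus noncoding. The nearest coding start on that strand was that of dct-11, with the summit at -1531 bp from it.

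These distances fall on both sides of the usual one. Over the 347 reproducible peaks with a coding start in the window, the summit was at a median of -192 bp from the nearest such start, with quartiles of -339.5 and -115 bp. The K12H4.5 summit was farther than the lower quartile. By the annotated gene start, at -58 bp, the tasp-1 summit was closer than the upper one. By its other transcript starts it was not, with -136 bp inside the quartiles and -420 bp beyond the lower one. Coding starts on both strands were present in the window of 2 of the 4 peaks, against 26.4% of all reproducible peaks.

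Further regions in the loci were far weaker, apart from 1 second peak. A locus was taken as the gene or gene pair with 5 kb on each side. The main peaks were selected by signal value, so their excess over other regions follows largely from that choice. The optimal list held 1 other region in the 4 loci, at II:10872566-10872829, downstream of cap-2. Its summit was at -87 bp from the start of cyn-4, which encodes a peptidyl-prolyl isomerase, and at -181 bp from that of copz-1, which encodes a putative subunit of the coatomer of transport vesicles. These genes form a divergent pair too. The signal value there was 5.83 in replicate 1 (rank 2501), 12.6 in replicate 2 (rank 726) and 23.3 in the optimal list (rank 420), or 4.24-fold below the peak at cap-2 and gmps-1.

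The pooled list added 1 region in that locus, at II:10870675-10870938, where the last exons of cap-2 and cyn-4 overlap, with a signal value of 8.17. In the tasp-1 locus it held 2. The first, III:10755069-10755332, lay in an intron of the heterochromatin protein gene hpl-2, with 8.39. The second, III:10766982-10767245, lay in a coding exon of dpy-28, a condensin subunit gene of dosage compensation, with 8.69. The main peak was 24.3-fold above the stronger of these.

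The puf-9 locus held 1 further pooled region, X:5844975-5845238, in an untranslated exon of puf-9, with 7.76, which is 11.5-fold below the main peak. None was listed in the K12H4.5 locus. Apart from the region at cyn-4, these pooled regions had signal values below the list's median of 8.98 and q-values from 0.802 to 0.912. None of the 4 had a summit within 100 bp in both replicate lists. Over the genome the pooled list held 0.905 regions per 10 kb, and the loci were 10294 to 17149 bp long. The counts of further pooled regions are therefore not read as a trait of these loci.

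The replicate lists hold background by construction and gave more regions. Besides the main peak, replicate 1 listed 3 regions in the tasp-1 locus, 6 in that of cap-2 and gmps-1, 4 in that of K12H4.5 and 8 in that of puf-9. Replicate 2 listed 2, 7, 1 and 5. Of these, 2 were found in both lists at cap-2 and gmps-1 (33.3% of those of replicate 1 and 28.6% of those of replicate 2), 1 at puf-9 (12.5% and 20.0%) and 0 in the other loci. The 2 at cap-2 and gmps-1 were the cyn-4 region and a region near the start of orc-2, with 2.54 in replicate 1 and 4.34 in replicate 2. Per 10 kb, main peak included, the loci held between 1.94 and 6.25 regions of a replicate list. The rate over the genome was 2.99. Each locus holds its main peak by selection, which raises its value, so the loci are not read against that rate. Setting aside the main peaks and the cyn-4 region, the strongest region in the replicate 1 list was the one in dpy-28, with 7.26 (rank 951). In the replicate 2 list it was a region in a coding exon of puf-9, with 8.90 (rank 1525). Neither had a counterpart in the other replicate.

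**Figure D3:**
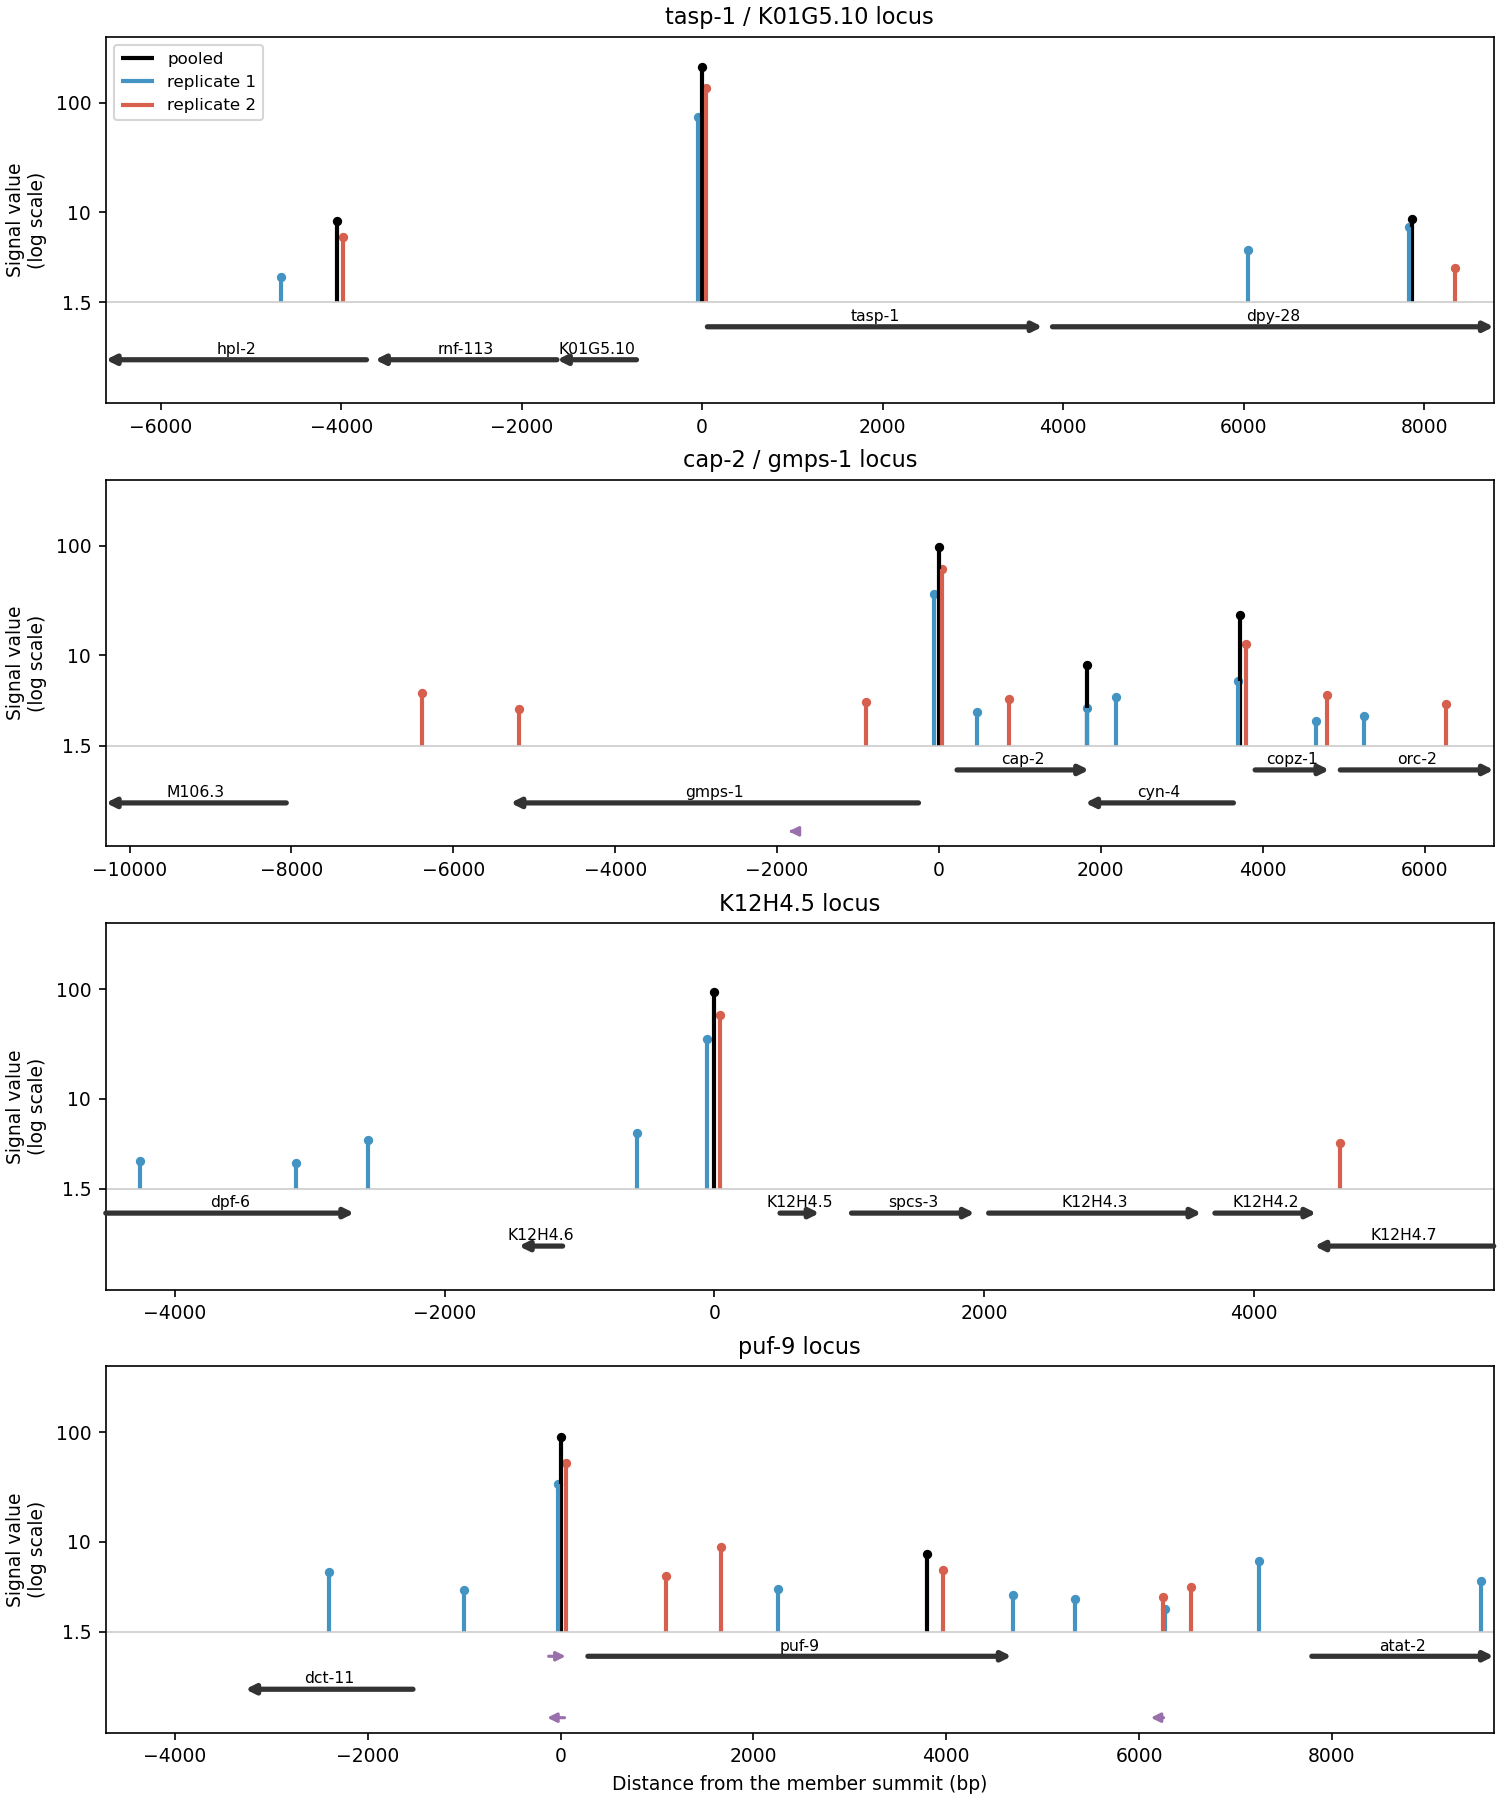
Signal values (log axis) of all regions listed within 5 kb of the genes, by distance from the member summit, for the pooled list and the replicates, whose lines are drawn 40 bp to the left and right for sight. Arrows are coding (dark) and noncoding (purple) genes by strand, clipped at the edges. The main peak, selected by signal value, exceeds all others by at least 4.24-fold in each list, including the second peak between cyn-4 and copz-1.

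Same-strand neighbours followed closely after 3 of the 6 genes, a count made after the values were seen. The condensin gene dpy-28 begins 109 bp after tasp-1, and rnf-113, which encodes a putative ubiquitin ligase, directly after K01G5.10 with 0 bp between. The third case is K12H4.5 with spcs-3. The gap was 2051 bp after cap-2, 2769 bp after gmps-1 and 3112 bp after puf-9. A gap of at most 500 bp to the next coding gene on the same strand was found for 34.9% of the 507 genes with a reproducible summit and for 18.1% of all 19961 coding gene entries with a next gene on their strand. Of the 3 cases, tasp-1 and K01G5.10 share the same peak and are not separate. With only 6 genes, the count is not read as a trait of the members, and its difference from these shares was not tested. The annotation used does not mark operons.

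GC content at the summits lay between percentiles 21.97 and 85.5 of the reproducible peaks. It was 54.7% at tasp-1 and K01G5.10 (95% Wilson interval over the bases of the window 47.8 to 61.5), 46.8% at puf-9 (39.99 to 53.7), 45.3% at cap-2 and gmps-1 (38.5 to 52.2) and 40.8% at K12H4.5 (34.2 to 47.7). These intervals treat the bases as independent draws. The sequence is fixed, so they measure no spread between replicates or window sizes. The median was 46.3% over all reproducible peaks (quartiles 41.8 and 51.7) and 38.3% over all pooled regions (33.3 and 43.8). K12H4.5 thus had the least GC, below the lower quartile of reproducible peaks, and the strongest peak had the most. CG dinucleotides numbered 20, 16, 15 and 15 in the windows of tasp-1, cap-2, K12H4.5 and puf-9. Medians were 13 at reproducible peaks (quartiles 10 and 16) and 7 in pooled regions (5 and 10). Only the tasp-1 window lay above the upper quartile of reproducible peaks.

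**Figure D4:**
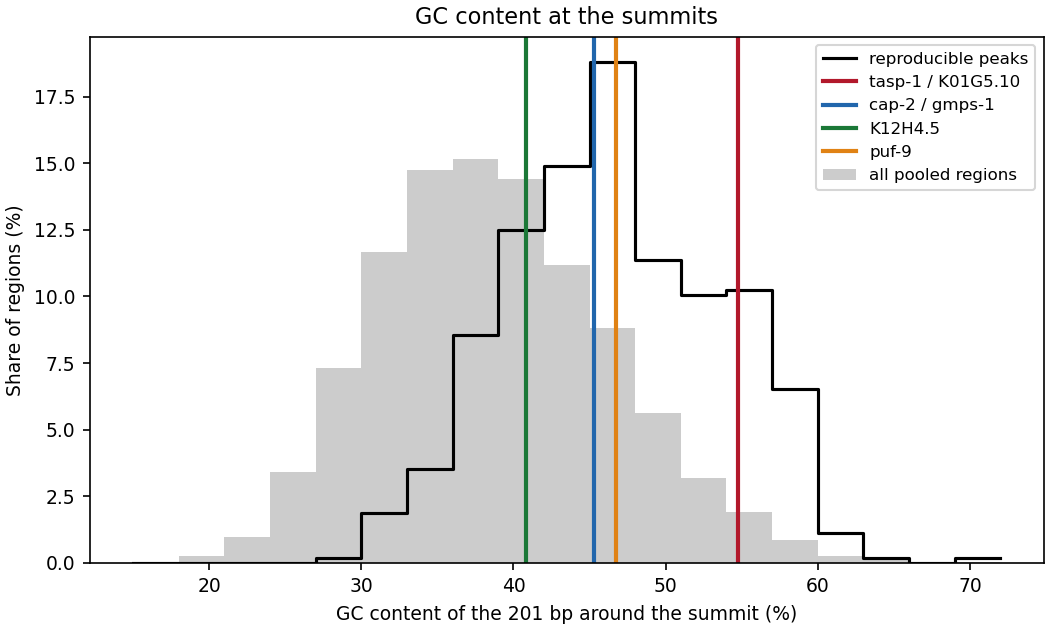
GC content of the window of 100 bp to either side of each summit, as the share of the 9070 pooled regions (grey bars) and of the 537 reproducible peaks (black line), with coloured lines at the 4 peaks. The lines run from 40.8% at K12H4.5 to 54.7% at tasp-1 and K01G5.10.

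Few of the 18 short motifs searched on both strands were present at these summits. The homeodomain cores TAATTA and TAATTG and the bicoid-type core TAATCC were found in 0 of the 4 windows, and they occur in 5.77%, 6.33% and 1.86% of all reproducible windows and in 7.76%, 13.3% and 6.28% of pooled windows. The cut-like and ONECUT core ATCGAT was found at tasp-1 and K01G5.10, near the left end of the printed window (11.2% of reproducible and 7.95% of pooled windows). The SP/KLF box GGGCGG was also found there (10.99% and 5.99%). The GATA site TGATAA occurred at puf-9 (6.52% and 15.3%), and CCAAT at K12H4.5 (27.0% and 35.9%). The repeat GAGAGAGA occurred at K12H4.5 (14.2% and 4.58%), inside the capital run of 10 bases.

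The remaining motifs were in 0 of the 4 windows. They were CTGCGTC (in 23.3% of reproducible and 6.23% of pooled windows), TATAAA (9.12% and 17.8%), the splice acceptor TTTTCAG (7.82% and 15.98%), the E-boxes CAGCTG (7.82% and 4.49%) and CACGTG (4.84% and 3.96%) and the GATA site AGATAA (5.03% and 10.3%). The rarer ones were the E2F sites TTTCCCGC (1.49% and 1.01%) and TTTGGCGC (1.3% and 0.992%), the CRE site TGACGTCA (0.745% and 1.14%) and the KLF box GGGTGTGG (0.186% and 0.176%). A match is a description of the letters and not of a bound site, and a missing match says only that these letters are not in this window.

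The 4 windows shared 2 words of 6 bases on either strand, GAGAGA and AGAGAG, and 0 words of 7 bases. This search was made after the values were seen. GAGAGA was found in 46.2% of all reproducible windows and 21.0% of pooled windows, and AGAGAG in 41.0% and 17.7%. In the windows shown above, GAGAGA began 47 bp to the right of the summit at tasp-1 and K01G5.10, and 14 and 22 bp to the right at cap-2 and gmps-1. It lay on the other strand, as TCTCTC, 62 to 53 bp to the left at K12H4.5 and 76 to 71 bp to the left at puf-9. Read along the strand that holds GAGAGA, the run lay 3′ of the summit in all 4 windows, at differing distances. Whether this shared side means anything was not tested.

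Genes of families and pathways related to the members carried a reproducible peak only in part. Whether the listed genes act with the members was not tested. Of all 19865 names of protein-coding genes, 507 had a reproducible summit in the window (2.55%), with a median signal value of 29.2. Of 29 genes for capping protein and actin regulators, 4 had one, with a median of 26.0. Count and median include cap-2, which signal value had selected, and 3 genes remain without it. They are therefore not read against the values over all genes. The 4 were cap-2, wve-1 (29.5), a WAVE family gene of actin nucleation, and unc-60 (22.6) and act-4 (22.5), which encode actin-depolymerizing factor and an actin. The window of the wve-1 peak also held the start of R06C1.4 on the other strand, and that of the unc-60 peak the start of F53E2.2. Those 2 peaks are therefore not assigned to the listed gene by position alone. The summit at act-4 lay 61 bp downstream of the start. The other capping subunit gene, cap-1, had no summit even among the pooled regions.

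Among 10 genes of purine synthesis, the only one with a reproducible peak was gmps-1, a member selected by signal value. The gene adss-1, of the branch to AMP, had a weak pooled region (9.15). Among 10 genes of the PUF family, the only one was again the selected member, puf-9, and puf-12 (13.6) and puf-3 (11.3) had weaker pooled regions. Of 11 genes of the TFIIA and COMPASS families, whose mammalian relatives include taspase substrates, 2 had a reproducible peak. These were set-16, a histone methyltransferase gene of the MLL family, with 73.7 (rank 32), and the TFIIA gene pqn-51, with 26.1 (rank 324). The summits were at -205 bp from the start of set-16 and at -170 bp from that of pqn-51. Each window held another coding start too, that of drr-2 on the other strand from set-16 and that of K11D12.14 beside pqn-51. Position alone does not assign these peaks to the family gene. The pooled list also held dpy-30 (13.6) and ash-2 (9.92). Beyond the members themselves these lists gave 3, 0, 0 and 2 genes, too few to describe a shared pattern.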

How the data were processed

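ChIP-seq of eGFP-tagged CEH-82 was represented by peak lists of 2 biological replicates, with library fragments of 150 to 350 bp. According to the deposited descriptions, the authors used a control alignment (not analysed here) and listed regions, background included, per replicate and for the pooled replicates. Their optimal list holds the pooled regions that passed a threshold on the irreproducible discovery rate. The sources used here give no aligner, peak caller or threshold. Column 7 holds a signal value, a score the authors deposited with no stated scale, and the significance is deposited as −log10 of a q-value. The lists hold no read counts, so depth is unknown, and the deposited summit offset is in bp. The SD between replicates may be partly technical, since the labels name biological replicates without further detail.

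Regions were ranked by signal value. Summits within 100 bp were taken as the same region. Genes came from Ensembl release 115 and sequence from RefSeq, both on WBcel235, the assembly that ce11 names, with 1-based coordinates. Every ce11 region ended within its chromosome. Python 3.11.15 with pandas 2.3.3 was used. No model was fitted across features and no test was made, because the signal value selected the members. The members and gene lists were chosen with earlier results of these data known. The text names the members, genes in their windows, the nearest coding gene on the other strand, genes at further regions in the loci, the neighbours in rank, the autosomal promoters ranked between the members, and listed genes with a reproducible peak. Genes just downstream, those at weaker pooled regions, those sharing a peak with a listed gene and cap-1 were named after their values were seen. The code for matching and window assignment was checked on simulated data, with 200 of 200 planted cases recovered in each. Listed regions near the planted summits had been removed, and planted signal values exceeded all others. The check therefore says nothing about matching among competing regions. Alternatives were the ce10 lists, each replicate alone, other match distances, flanks, windows and the stronger 50% of the peaks.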

Additional observations from a re-analysis of the deposited data

How the results depend on the processing

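The ranks depended on the list used but stayed at 33 or better for all 4 peaks. With 1 replicate left out, they were 1 to 2 at tasp-1 and K01G5.10, 14 to 20 at cap-2 and gmps-1, 17 to 24 at K12H4.5 and 19 to 33 at puf-9. In the ce10 pooled list, where rows were paired by signal value and width without converting coordinates, the ranks were 1, 16, 19 and 24. Signal value also sets the rank, so similar ranks follow from this pairing and are no separate check. At puf-9 the paired row differed by 0.872% in signal value and the next candidate by 1.83%. The next candidate at K12H4.5 differed by 0.698%. Both replicate lists held all 4 peaks at match distances of 50, 100 and 200 bp.

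The counts of further pooled regions depended on the flank. With 2 kb instead of 5 kb on each side, the tasp-1 locus held 0 in place of 2, and with 10 kb it held 4 and the K12H4.5 locus 1 in place of 0. GC content moved with the window. Within 50 bp of the summit it was 54.5% at cap-2 and gmps-1 and 53.5% at puf-9, so these 2 changed places. Within 200 bp it was 45.1% at tasp-1 and K01G5.10, 44.9% at puf-9, 34.7% at cap-2 and gmps-1 and 31.2% at K12H4.5. In that window the strongest peak was thus barely above puf-9. With the stronger 50% of the peaks, which are fewer, 2 actin regulators and 1 gene of the TFIIA and COMPASS families had a reproducible peak. Summit distances by either replicate alone stayed within 21 bp of those given. No paired analysis was possible because the series has 1 group and no test was made. Unknown depth limits what can be said of the weak regions.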
